A study of Mus musculus with 2 samples.

Results

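The miR-26 family of the mouse was followed in small RNA libraries of macrophage exosomes, small vesicles shed by cells that can pass RNA from one cell to another. Its members were chosen by name, as the miR-26a and miR-26b guide strands and the passenger arms of their hairpins, and they are 5 of the 1976 mature miRNAs listed. They were chosen with their values in these libraries known, so the values below are a description. The libraries came from bone marrow-derived macrophages of C57BL/6 mice aged 5 to 6 weeks, grown from marrow with M-CSF (10 ng/mL, 7 days). M1 exosomes were those of cells polarised with IFN-γ, and M2 exosomes were those of cells polarised with IL-4, in both cases at 20 ng/mL for 1 day. Both kinds of culture then stood in serum-free medium for 2 days before the vesicles were pelleted. Each condition had 1 library, so replicate error is unknown throughout, and the differences given are between single libraries. The number of mice or cultures behind each library was not given in the sources used here.

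A miRNA hairpin is cut into a duplex with a 5′ arm and a 3′ arm. The guide arm stays in an Argonaute protein and pairs with target mRNAs through its seed, while the passenger arm is mostly discarded. In miR-26 the 5′ arm is the guide. miR-26 guides are made in many cell types, lie in genes for small phosphatases that act on RNA polymerase II, and are known to restrain the histone methyltransferase Ezh2. Uridine added to the end of miR-26 by the enzyme Zcchc11 is known, from human lung epithelial cells, to relieve repression of the mRNA of the cytokine IL-6.

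The mature sequences are shown because the seed decides which members act as 1 group. Capitals mark the seed, bases 2 to 8, and the sequences are those of RefSeq on GRCm38.p6, which held all 5 members.
mmu-miR-26a-5p: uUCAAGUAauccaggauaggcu
mmu-miR-26b-5p: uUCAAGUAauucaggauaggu
mmu-miR-26b-3p: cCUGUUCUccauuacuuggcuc
mmu-miR-26a-2-3p: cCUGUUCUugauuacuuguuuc
mmu-miR-26a-1-3p: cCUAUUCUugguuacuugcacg

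The 2 guides shared the seed UCAAGUA, and among the 1679 mature miRNAs of that table no other carried it. Counted from 1 at the 5′ end, miR-26b-5p differed from miR-26a-5p by C11U and C21U over their 21 common positions, and miR-26a-5p was 1 base longer. The passenger arms of miR-26b and miR-26a-2 shared the seed CUGUUCU, while that of miR-26a-1 differed from the miR-26a-2 arm within the seed by G4A. A count by mature name therefore tells the 2 miR-26a loci apart only by their passenger arms, since the miR-26a-5p made by both is 1 sequence.

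The hairpins are shown with both arms in capitals, so that the position of each guide and its passenger can be seen.
Mir26a-1: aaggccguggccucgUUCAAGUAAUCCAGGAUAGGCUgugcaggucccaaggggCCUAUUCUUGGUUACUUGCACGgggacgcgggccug
Mir26a-2: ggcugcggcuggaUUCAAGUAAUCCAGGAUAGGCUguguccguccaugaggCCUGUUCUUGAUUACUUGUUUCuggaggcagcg
Mir26b: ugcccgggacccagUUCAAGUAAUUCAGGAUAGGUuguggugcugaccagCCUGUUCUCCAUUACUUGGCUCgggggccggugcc

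Mir26a-1 lies at chr9:119031796-119031885 in an intron of Ctdspl. Mir26a-2 lies at chr10:126995530-126995613 in Ctdsp2, and apart from 1 base at its end, which is also the first base of an exon of a shorter transcript, it is intronic. Mir26b lies at chr1:74394310-74394394 in an intron of Ctdsp1. All positions are on GRCm38, the assembly also called mm10, and in all 3 cases the hairpin and its host gene are on the plus strand.

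Both guides were lower in M1 exosomes than in M2 exosomes, by about the same factor. The deposited values are on a log2 scale of a normalized level, and a level below is 2 to the power of that value, minus 1, in the authors' units. mmu-miR-26a-5p, the more abundant guide, had a level of 952 units in M1 exosomes, against 2256 units in M2 exosomes. mmu-miR-26b-5p had 290 units in M1 exosomes, against 656 units in M2 exosomes. Each guide was thus above 100 units in both libraries and more than 2-fold apart between them. On the deposited scale the values of miR-26a-5p were 9.90 in M1 exosomes and 11.14 in M2 exosomes, a log2 ratio of M1 over M2 of -1.24, or 2.37-fold higher in M2. Those of miR-26b-5p were 8.19 in M1 exosomes and 9.36 in M2 exosomes, a log2 ratio of -1.17, or 2.25-fold higher in M2. Whether there were fewer vesicles with the guides or less of them per vesicle cannot be told apart in such pooled material.

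**Figure D1:**
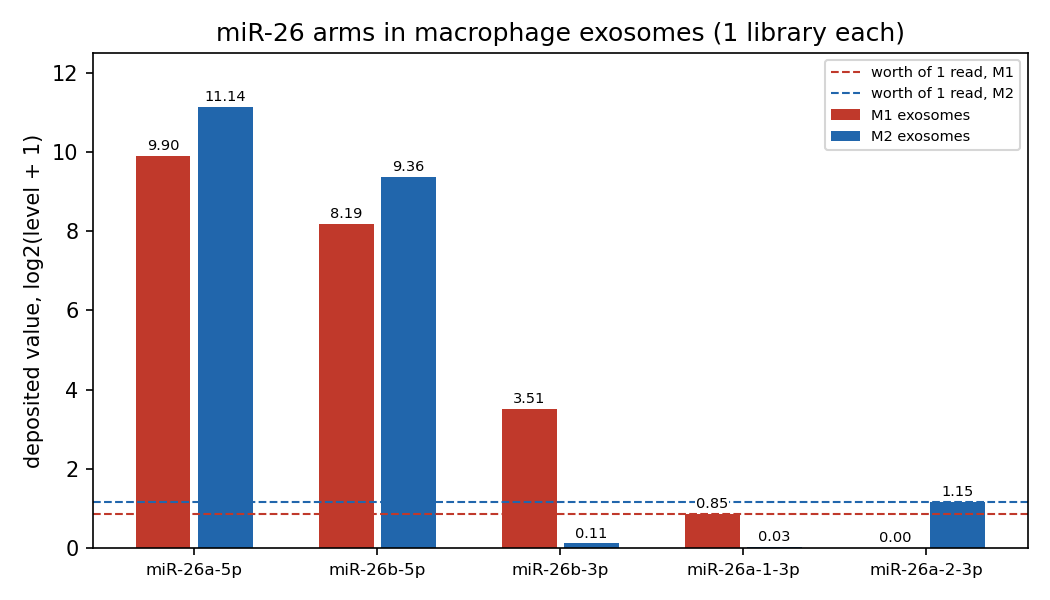
Deposited value, log2(level + 1), of the 5 miR-26 arms in M1 exosomes (red) and M2 exosomes (blue), 1 library each. Dashed lines mark the worth of 1 read in each library: both guides stand far above it, miR-26b-3p stands above it in M1 exosomes only, and the miR-26a passenger arms reach it in 1 library each.

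A 2-fold difference was common in these libraries. A miRNA was compared where either library held at least 10 units of it, which was so for 337, and of these 49% were at least 2-fold apart (22.8% higher in M2 exosomes and 26.1% higher in M1 exosomes). Of the 5 members 3 were compared, with both guides among those higher in M2 exosomes and miR-26b-3p among those higher in M1 exosomes. miR-26b-3p reached 10 units in M1 exosomes only, so the minimum itself favours that call and it is no finding beside these shares. Among the 154 miRNAs that averaged 100 units or more over both libraries, where both guides fall, 20.1% were higher in M2 exosomes by 2-fold or more. Of the 337 miRNAs 58 had a lower ratio than miR-26a-5p and 63 had a lower ratio than miR-26b-5p. The median log2 ratio over the 337 was 0.04 (SD over miRNAs 1.59), so the guides stood below the middle and within the bulk of the ratios.

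**Figure D2:**
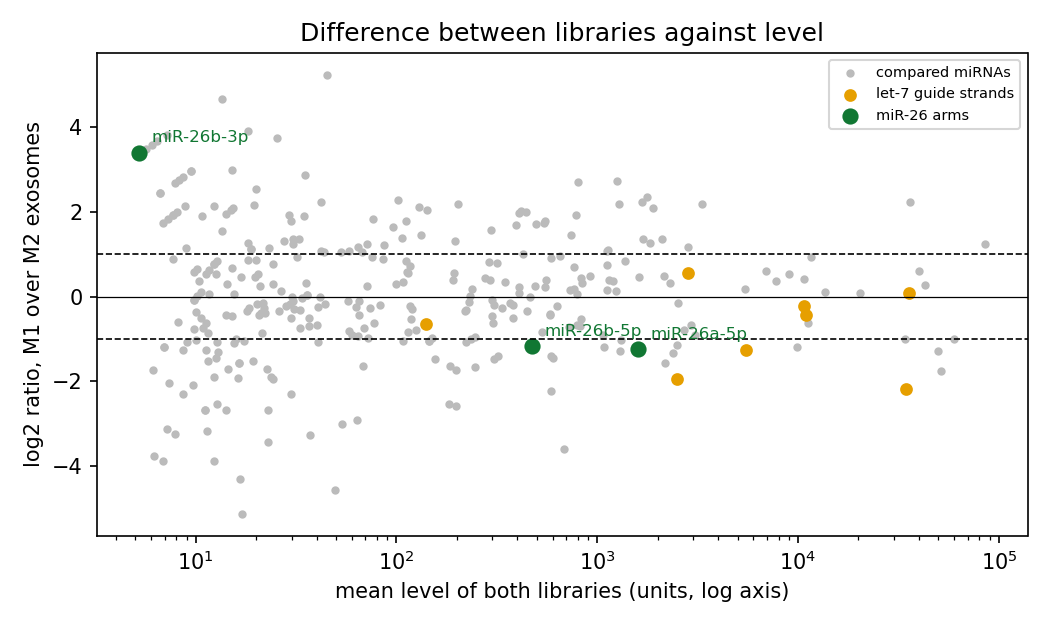
Log2 ratio of M1 over M2 exosomes (vertical) against the mean level of both libraries in units (horizontal, log axis) for the 337 miRNAs compared, 1 library each. The miR-26 guides (green) lie side by side at -1.24 and -1.17, just below the lower 2-fold line (dashed), and miR-26b-3p lies at 3.40 among the lowest levels, where ratios scatter most. The 8 let-7 guides (orange) run between -2.18 and 0.55.

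The balance of the guides was nearly the same in both libraries. The level of miR-26a-5p was 3.28 times that of miR-26b-5p in M1 exosomes and 3.44 times in M2 exosomes. miR-26a-5p made up 76.6% of the summed guide level in M1 exosomes, against 77.5% in M2 exosomes. The log2 ratios of the guides differed by -0.07 (miR-26a-5p minus miR-26b-5p). The SD of the ratios was 1.21 over the 154 miRNAs that averaged 100 units or more. That is the spread of single ratios and not of differences between 2 of them. The guides differ at 2 positions besides the end, and how reads that match both were counted was not given, so their values may not be independent.

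Summed over its guides, the seed UCAAGUA had a level of 1243 units in M1 exosomes, against 2911 units in M2 exosomes, a log2 ratio of -1.23. That was 0.18% of the summed level of the library in M1 exosomes and 0.40% in M2 exosomes. Among the 1396 seeds of the listed miRNAs with a sequence it ranked 35th in M1 exosomes and 17th in M2 exosomes. As a single miRNA, miR-26a-5p ranked 59th in M1 exosomes and 33rd in M2 exosomes, and miR-26b-5p ranked 108th in M1 exosomes and 73rd in M2 exosomes. miR-6371, which matches the guide seed over bases 2 to 7 only, was listed at 0 in both libraries. The seed class was therefore made up of its 2 guides in both libraries, and the guides held 99.1% of the level of the 5 members in M1 exosomes and 99.95% in M2 exosomes.

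The passenger arms were at the low end of the scale, where single reads count. Low levels of miRNAs without a whole read in the other library fell on even steps, taken as the worth of 1 read, of 0.80 units in M1 exosomes, against 1.22 units in M2 exosomes. Some deposited values lie below these steps, since the low values of one library move with the other. For a miRNA listed at 0 the expected count may still be up to 3 reads, a limit that covers counting error alone. That is 2.40 units in the M1 library, against 3.67 units in the M2 library. The total number of reads is unknown.

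mmu-miR-26b-3p, the passenger of miR-26b, stood out from its guide. Its deposited value was 3.51 in M1 exosomes and 0.11 in M2 exosomes, which is 10.4 units in M1 exosomes, against 0.08 units in M2 exosomes. The M1 level was worth 13 reads (95% exact Poisson interval 6.92 to 22.2 reads, or 5.54 to 17.8 units), and the M2 level was below the worth of 1 read. The log2 ratio of the deposited values was 3.40, but its size rests on a value below 1 read. The M1 level was 2.84 times the level that 3 reads would have in M2 exosomes, and the low end of its Poisson interval was 1.51 times that level. With a pseudocount of 5 units the log2 ratio was 1.60, and with 0.5 units it was 4.23. Of the 288 miRNAs that reached 10 units in M1 exosomes, 6 were below the worth of 1 read in M2 exosomes, miR-26b-3p among them, and it was just over that minimum.

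The passenger arms of miR-26a were at or below 1 read in both libraries. mmu-miR-26a-1-3p had a deposited value of 0.85 in M1 exosomes, which is the worth of 1 read, and 0.03 in M2 exosomes, below it. mmu-miR-26a-2-3p was listed at 0 in M1 exosomes and had 1.15 in M2 exosomes, which is again the worth of 1 read. Neither reached the minimum of 10 units, so no ratio is given for them, and which of the 2 loci supplied miR-26a-5p could not be told from their arms at this depth. miR-6932-3p and miR-7039-3p, which share the seed of miR-26b-3p and miR-26a-2-3p, were no higher than 1 read. miR-6932-3p was listed at 0 in M1 exosomes and had a deposited value of 1.15 in M2 exosomes, and miR-7039-3p was listed at 0 in both.

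Guide exceeded passenger for each of the 3 passenger arms and in both libraries. Mir26a-1 and Mir26a-2 were each given the whole level of miR-26a-5p, so neither has a guide level of its own. For Mir26b the guide minus the passenger was 4.68 on the log2 scale in M1 exosomes and 9.25 in M2 exosomes. For Mir26a-1 it was 9.05 in M1 exosomes and 11.11 in M2 exosomes. For Mir26a-2 it was 9.90 in M1 exosomes and 9.99 in M2 exosomes. All of these but the M1 value of Mir26b have a passenger at or below 1 read, so they depend on the pseudocount and on depth. Over the 95 arm pairs whose guide had at least 100 units in both libraries, the median difference was 6.82 in M1 exosomes and 7.63 in M2 exosomes. Of those pairs 33.7% had a smaller difference than Mir26b in M1 exosomes and 74.7% in M2 exosomes. The place in M2 rests on a passenger below 1 read: with it at 3 reads the difference would be 7.14. The passengers of the other pairs were left as deposited, many of them also low. The place of Mir26b among the pairs at such a floor was therefore not found.

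**Figure D3:**
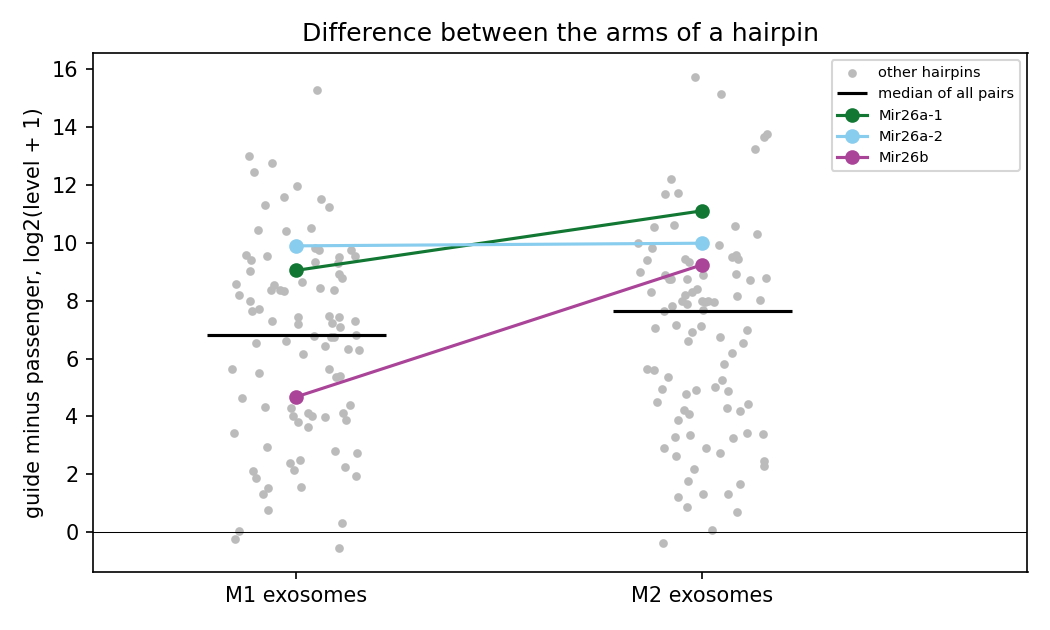
Guide minus passenger on the log2(level + 1) scale in M1 and M2 exosomes, 1 library each, for the 3 miR-26 hairpins (coloured, joined by lines) and the other hairpins with a guide of at least 100 units in both libraries (grey), with the median of all 95 pairs as a black bar. Mir26b lies at 4.68 in M1 exosomes and 9.25 in M2 exosomes, while Mir26a-2 lies near 9.9 in both. Mir26a-1 and Mir26a-2 are drawn with the same guide level, that of miR-26a-5p.

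Put as a share, miR-26b-3p made up 3.46% of the 2 arms of miR-26b in M1 exosomes (1.87% to 5.77% over the Poisson interval of the passenger). In M2 exosomes up to 3 reads of it would make up at most 0.56%. With the passenger at 3 reads in M2 exosomes, the arm difference there was 7.14, and the change in arm difference (M1 minus M2) was -2.46 in place of -4.57. Both arms were compared for 67 pairs. The log2 ratios of the arms had opposite signs in 26 of these, and in 5 (7.46%) the arms were at least 2-fold apart in opposite directions. In 3 of these the guide was higher in M2 exosomes and the passenger in M1 exosomes, namely miR-26b, let-7d and miR-582, which were named after their values were seen. The passengers of miR-26b and miR-582 reached 10 units in M1 exosomes only, so the minimum favours that direction for them. In 8 pairs both arms were higher in M1 exosomes and in 4 both were higher in M2 exosomes.

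The miRNAs most alike in pattern were found by the distance between their deposited log2 values in the 2 libraries, which gives 2 points each. Nearest to miR-26a-5p were miR-378c (0.39 log2 units away), miR-148b-3p (0.45), miR-378a-3p (0.56), miR-7a-5p (0.77) and miR-30e-3p (0.78). Their log2 ratios of M1 over M2 ran between -1.57 and -0.91. miR-378a-3p, which IL-4 is known to induce in macrophages, had a level of 1094 units in M1 exosomes, against 3246 units in M2 exosomes. Nearest to miR-26b-5p were miR-30c-5p (0.40), miR-340-5p (0.42), miR-362-3p (0.45), miR-98-5p (0.57) and miR-143-3p (0.59), with log2 ratios between -1.46 and -0.33. All 10 had ratios below 0, but with 2 libraries any miRNA near the guides in both values has a like ratio.

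Other miRNAs reported to restrain Ezh2, as miR-26a does, lay on both sides of 0. Of the 11 on that list 7 were compared, of which 0 were higher in M1 exosomes by 2-fold or more (26.1% of all 337), against 2 in M2 exosomes (22.8% of all 337). Their median log2 ratio was -0.44, against 0.04 over all 337. let-7a-5p, a member of the let-7 family that restrains growth genes, had a level of 3248 units in M1 exosomes, against 7738 units in M2 exosomes, a log2 ratio of -1.25 next to that of miR-26a-5p. The other was miR-138-5p, whose M1 level of 0.70 units was close to the worth of 1 read, against 15 units in M2 exosomes. miR-101a-3p, the miRNA best known for Ezh2, had a log2 ratio of 0.38 and its relative miR-101b-3p had 0.17. let-7b-5p, let-7c-5p and miR-98-5p, which share the let-7 seed, had 0.55, -0.44 and -0.49.

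miRNAs which, like miR-26, lie in introns of protein-coding genes and are made in many cell types were split around 0. All 16 on that list had at least 1 intronic hairpin, and 15 were compared. By 2-fold or more, 2 of the 15, miR-30e-5p and miR-106b-5p, were higher in M1 exosomes (26.1% of all 337). Another 2, miR-340-5p and miR-152-3p, were higher in M2 exosomes by as much (22.8% of all 337). The remaining 11 differed by less, and the median log2 ratio of the 15 was 0.17. Among the most abundant, miR-25-3p had a log2 ratio of 0.60, miR-140-3p 0.17, miR-342-3p 0.45, miR-186-5p 0.17 and miR-16-5p -0.41. miR-340-5p, from an intron of Rnf130, had a level of 324 units in M1 exosomes, against 857 units in M2 exosomes, the value closest in pattern to a miR-26 guide on this list after miR-30c-5p.

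**Figure D4:**
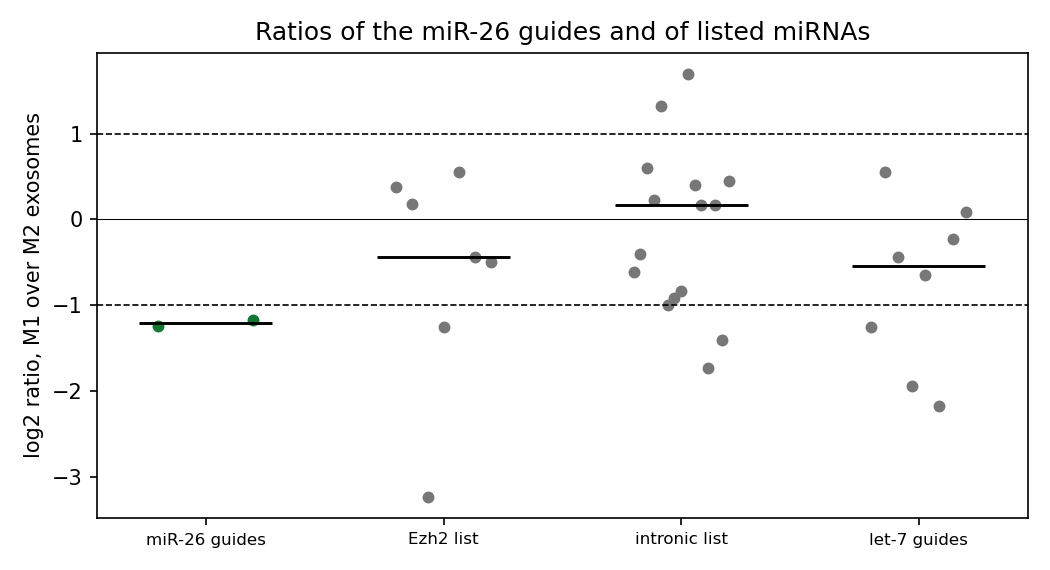
Log2 ratio of M1 over M2 exosomes for the compared members of each group, 1 point per miRNA, with the group's median as a bar and 2-fold marked by dashed lines. The miR-26 guides lie together at -1.24 and -1.17, while each of the other groups holds members on both sides of 0.

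The 8 let-7 guide strands, a larger family of broadly made miRNAs, spread more widely than the 2 miR-26 guides, as 8 values tend to do beside 2. Their log2 ratios ran between -2.18 and 0.55 with a median of -0.54. By 2-fold or more, 0 of the 8 were higher in M1 exosomes (26.1% of all compared miRNAs), against 3 in M2 exosomes (22.8% of all compared). Their summed level was 76289 units in M1 exosomes, against 129302 units in M2 exosomes. Whether the miR-26 guides differ from this family was not tested, since there are 2 libraries.

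Markers of other cells stood at different levels in the libraries. Of 6 macrophage and myeloid markers 4 were listed under the names searched. The other 2, the arms of miR-142, are listed as miR-142a-5p and miR-142a-3p, with log2 ratios of 1.72 and -1.07, and are not in the sum. The summed level of the 4 was 146452 units in M1 exosomes, against 98025 units in M2 exosomes, most of it in M1 from miR-146a-5p (120526 units), while miR-21a-5p and miR-223-3p had log2 ratios of -0.99 and -0.69. The 3 erythroid markers summed to 5143 units in M1 exosomes, against 907 units in M2 exosomes. The 3 hepatocyte markers summed to 60272 units in M1 exosomes, against 13050 units in M2 exosomes. Of these units miR-122-5p alone gave 59763 in M1 exosomes, against 12650 in M2 exosomes, and miR-192-5p and miR-194-5p had log2 ratios of 0.35 and 0.34. The 5 stromal markers summed to 1329 units in M1 exosomes, against 776 units in M2 exosomes. The 2 endothelial markers summed to 962 units in M1 exosomes, against 589 units in M2 exosomes, and the 6 epithelial markers to 239 units in M1 exosomes, against 166 units in M2 exosomes. None of the listed markers was at 0 in both libraries. Each of these sums was higher in M1 exosomes, where the miR-26 guides were lower and miR-26b-3p was higher, but single markers went the other way, among them the stromal miR-143-3p (-0.33) and the epithelial miR-200b-3p (-0.61) and miR-203-3p (-0.46). The part of these cells in the values of miR-26 was not tested.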

How the data were processed

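The submitters' processing notes name Bowtie2, bedtools and the mm10 build, without versions or roles. RNA (500 ng) went into a NEBNext small RNA kit, per the labels' protocols. The authors deposited 1 log2 value per mature miRNA and library; counting, strand use, the handling of reads with several matches and their normalization were not given in the sources used here. To obtain a level, 2 was raised to the deposited log2 value and 1 subtracted. The steps of the lowest levels were read from 175 miRNAs in M1 exosomes (99.4% whole multiples within 0.1 step) and from 129 in M2 exosomes (95.3%). Of the M2 values, 175 were lower than 1 read would be (0.03 to 0.135) and moved with the M1 value, so the libraries were taken as normalized together. A change shared by most miRNAs might not be seen.

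Depth is known only at these low levels. The ratio is the M1 value minus the M2 value, called at 2-fold and with a minimum of 10 units in at least 1 library. No test was made with 1 library per group. The members, the lists and the rules were chosen with earlier results of these data known. The text names all 5 members, miRNAs of the same seed, the 5 nearest to each guide, and up to 6 list members with a mean of at least 100 units, taken by level. Others were named after their values were seen. One planned list is not reported here.

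Arms were paired by hairpin, and the arm with the higher level, summed over both libraries, was called the guide of its pair. Sequences and positions were taken from RefSeq (GRCm38.p6), with host genes from GENCODE M21 on the same assembly. Of the 1976 listed miRNAs 1677 had a mature sequence there. The calculation was tried on simulated libraries with counting error alone, built from miRNAs averaging at least 10 units, with 200 of them changed 4-fold. These had no joint normalization and left out the miR-26 passenger arms. They bear neither on values below 1 read nor on changes near 2-fold. Python 3.11.15, numpy 2.4.6, pandas 2.3.3, scipy 1.17.1 and matplotlib 3.10.9 were used.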

Additional observations from a re-analysis of the deposited data

How the results depend on the processing

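No paired analysis was possible because there is only 1 sample of each condition, and likewise no library could be left out. Both guides kept their direction and stayed more than 2-fold apart under the 5 alternatives of scaling and pseudocount, between -1.31 and -1.14 for miR-26a-5p and between -1.24 and -1.07 for miR-26b-5p. The other minimums do not alter the ratio of a single miRNA. The guide sum ran between -1.30 and -1.13 over the same 5. The values nearest 0 came from dividing each library by its summed level. miR-26b-3p kept its direction and call in those 5 (1.60 to 4.23), and it gave no value with a minimum of 100 units or with 10 units required in both libraries. The arm differences and the miR-26a over miR-26b ratios kept their direction under other pseudocounts. That was certain beforehand, since a pseudocount added to both levels cannot change which is larger. Over all miRNAs, the numbers at least 2-fold higher in M1 and in M2 exosomes were 201 and 229 with no minimum, 37 and 33 with 100 units, and 55 and 37 with 10 units in both, since other sets of miRNAs enter. No minimum would also take in the miR-26a passenger arms, where 1 read sets the ratio. Depth limits the passenger arms, and the missing replicates limit the rest.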

Other observations

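The guides are poorer in G and C than the typical compared miRNA, with 40.9% for miR-26a-5p and 33.3% for miR-26b-5p. The median was 47.6% over the 293 compared miRNAs with a mature sequence. It was 50.0% in the 75 of these that were higher in M1 exosomes by 2-fold or more, 45.5% in the 68 that were higher in M2 exosomes by as much and 47.6% in the other 150. miR-26b-3p, which was higher in M1 exosomes, has 50.0%, miR-26a-1-3p has 45.5% and miR-26a-2-3p has 36.4%. Across these miRNAs the Spearman correlation of base composition with the log2 ratio of M1 over M2 was 0.18 (n = 293 miRNAs of the same 2 libraries, which are not independent replicates).

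The change in arm difference of Mir26b, -4.57 as M1 minus M2, was the lowest of the 67 pairs with both arms compared, whose median was -0.24 and whose highest was 4.71. The pair was picked with its values known. Its passenger reached 10 units in M1 exosomes only, so the minimum itself favours a large change here. With the M2 passenger at 3 reads its change was -2.46. Below that lay 4 other pairs, among them miR-582 at -3.18 and let-7d at -3.03. These others were not set to 3 reads, though miR-582-5p had 2.64 units in M2 exosomes, where 3 reads are worth 3.67 units.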
